A study of Mus musculus with 21 samples.

Results

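The 10 genes described here encode plasma membrane transporters of amino acids: Slc38a1, Slc38a2, Slc38a4, Slc7a5, Slc3a2, Slc7a11, Slc1a5, Slc1a4, Slc7a1 and Slc6a14. They are 10 of the 22180 mouse genes with a probe set assigned to a single symbol on the arrays. The group was chosen on measured values, because Slc38a1 had the largest mean increase of all genes in cultured Py8119 cells over cultured Py117 cells. That difference was 5.19 on the log2 scale, and the next gene, Praf2, had 4.32. The comparison of the 2 cultures is therefore given as a description without a test. For the same reason Slc38a1 is not tested where a culture enters the comparison.

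Cells take up amino acids through carriers that differ in what they bind and what they exchange it for. Sodium-coupled carriers of the Slc38 family (Slc38a1, Slc38a2 and Slc38a4) bring in glutamine, alanine and other small neutral amino acids. Slc7a5 (LAT1) pairs with the glycoprotein Slc3a2 (CD98) to exchange such amino acids for leucine and other large neutral ones, and Slc7a11 (xCT) pairs with the same partner to take up cystine, a source of glutathione, in exchange for glutamate. Slc1a5 (ASCT2) and Slc1a4 (ASCT1) exchange neutral amino acids, Slc7a1 (CAT1) carries arginine and lysine, and Slc6a14 takes up a broad range of neutral and cationic amino acids. Several of these genes are known targets of ATF4, the transcription factor that cells make when amino acids run short.

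The study set side by side 2 mouse mammary carcinoma lines, Py8119 and Py117, described by its submitters as resistant and sensitive to radiation. Both are clones from mammary tumours of transgenic mice that carry polyomavirus middle T antigen under the MMTV promoter (MMTV-PyMT). RNA from 21 samples was hybridised to Affymetrix whole-transcript arrays, and the values are log2 signals. Py8119 tumours (5 arrays), mixed tumours (5) and Py117 tumours (5) grew from 1000000 cells placed in mammary fat pad 4 in equal parts of PBS and matrigel, the mixed ones from both lines at 1:1. Py8119 cultures (3) and Py117 cultures (3) were kept in Ham's F12K medium with 5% serum. All samples were untreated, and the harvest fell on the day when radiation would usually be given. Samples are called biological replicates, but nothing tells whether each came from its own mouse or culture, so p-values measure the spread between these samples.

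Array medians lay between 5.236 and 5.533, and arrays of the same group correlated at 0.969 to 0.994. Signals have no absolute zero. The 1390 genes for receptors of smell on the array had a 95th percentile of 5.31, used here as the level of background. Of 10 epithelial marker genes, 6 had mean signals under this level in Py8119 tumours and in Py8119 culture, 4 in mixed tumours, none in Py117 tumours and 1 in Py117 culture. Levels of different genes cannot be compared, because each probe set has its own response. Tumours also hold cells of the mouse, and in such bulk samples fewer cells of a type and less RNA per cell cannot be told apart.

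Promoter windows were at hand for 7 of the 10 genes, from RefSeq on build GRCm38.p6, each with 250 bases before and 50 bases after an annotated start. Slc38a1, Slc7a5 and Slc1a5 had none. The windows of Slc7a11 and Slc1a4 are shown because both genes were lower in Py8119 tumours than in Py8119 culture and because only these held the letters TGATGNAA, the composite site bound by ATF4 with C/EBP factors, among the 10 windows of the 7 genes. Slc7a1 and Slc7a5 were also lower in Py8119 tumours than in Py8119 culture, Slc7a1 with no such match and Slc7a5 with no window. Capitals mark the matches on either strand. The Slc7a11 window is chr3:50443564-50443863 and the Slc1a4 window chr11:20332664-20332963, both read 5′ to 3′ on the minus strand.
Slc7a11: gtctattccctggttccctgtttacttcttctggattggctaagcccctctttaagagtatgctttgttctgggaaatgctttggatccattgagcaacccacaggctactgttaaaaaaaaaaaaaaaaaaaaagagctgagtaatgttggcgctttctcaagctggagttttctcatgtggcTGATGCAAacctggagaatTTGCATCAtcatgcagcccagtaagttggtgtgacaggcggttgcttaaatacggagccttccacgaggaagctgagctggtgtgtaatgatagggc
Slc1a4: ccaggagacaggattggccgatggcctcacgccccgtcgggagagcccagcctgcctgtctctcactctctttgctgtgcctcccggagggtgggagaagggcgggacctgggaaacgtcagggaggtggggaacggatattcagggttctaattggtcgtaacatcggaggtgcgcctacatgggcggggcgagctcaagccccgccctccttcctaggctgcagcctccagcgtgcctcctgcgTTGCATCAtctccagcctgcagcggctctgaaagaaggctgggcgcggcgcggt

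Slc7a11 held 2 matches, on opposite strands and close to each other, and Slc1a4 held 1. The same letters stood in 3.97% of all 32851 promoter windows in the table. The E-box CACGTG, found in 7.15% of windows, was in none of the 10. The core of the antioxidant element, TGACNNNGC, stood in 12.4% of windows and among these genes in that of Slc38a2 and in 1 of 2 windows of Slc7a1. These are matches of letters and show no binding. On the chromosome, Slc38a1, Slc38a2 and Slc38a4 lie next to each other on chromosome 15, in the RefSeq annotation.

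Slc38a1, a sodium-coupled glutamine transporter, was far higher in Py8119 tumours than in Py117 tumours. Its signals were 9.95, 9.92, 9.89, 10.24 and 9.91 in Py8119 tumours, against 7.62, 7.59, 7.71, 8.40 and 8.38 in Py117 tumours. The groups did not overlap, and tumours 4 and 5 of the Py117 line stood above the other Py117 tumours. The difference was 2.04 ± 0.15 (log2, SE), or 4.13-fold, with an adjusted p of 5.32e-09 in limma (n = 5 each). In mixed tumours the signals were 9.913, 9.954, 10.063, 9.996 and 10.159, all within the range of Py8119 tumours.

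In the cultures, whose values chose the gene, Slc38a1 read 10.74, 10.78 and 10.76 in Py8119 cells and 5.86, 5.37 and 5.49 in Py117 cells. The Py117 values lay just above background, so the 36.5-fold ratio of the means is limited by it. From the highest to the lowest mean the order was Py8119 culture (10.76), mixed tumours (10.02), Py8119 tumours (9.98), Py117 tumours (7.94) and Py117 culture (5.57). Among neighbours in this order, mixed and Py8119 tumours overlapped and the others did not. The Py117 tumours thus stood 2.37 above Py117 culture, and the Py8119 tumours differed from Py8119 culture by -0.78, both given without a test.

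**Figure D1:**
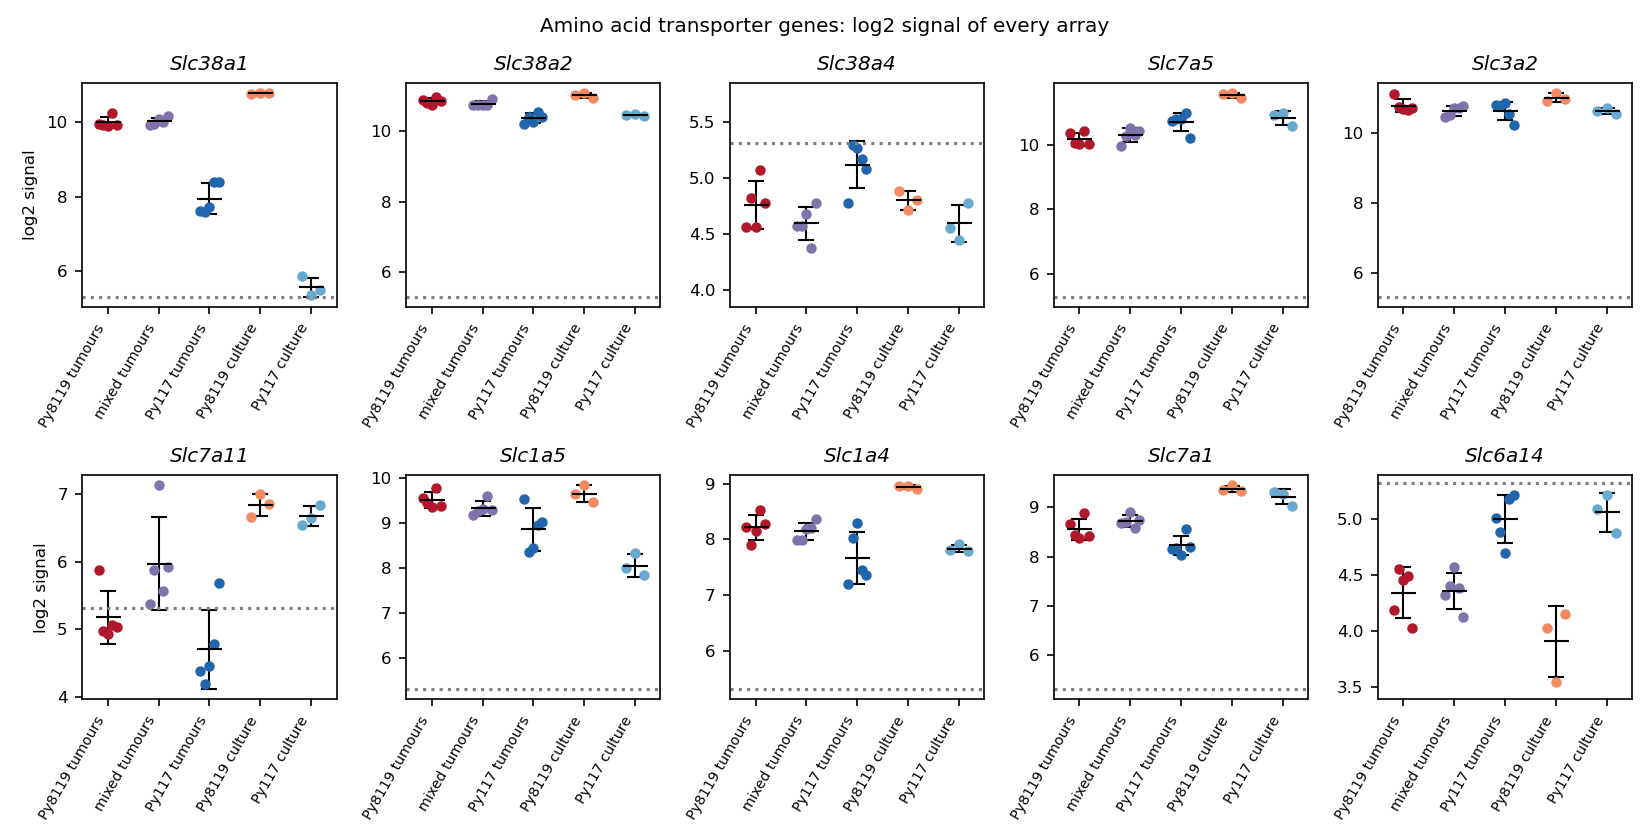
Log2 signal (vertical axis, a span of its own for each gene) of the 10 transporter genes in each of the 21 arrays, by group. Points are arrays, bars the mean ± SD of 5 tumours or 3 cultures, and the dotted line is background at 5.31. Slc38a1 lay near 10 in Py8119 and mixed tumours and between 7.59 and 8.40 in Py117 tumours, while Slc38a4 and Slc6a14 were under background in every array.

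Slc38a2, the nutrient-regulated relative of Slc38a1, was also higher in Py8119 than in Py117 tumours, with a smaller difference. It read 10.89, 10.81, 10.74, 10.96 and 10.85 in Py8119 tumours, against 10.21, 10.40, 10.25, 10.56 and 10.42 in Py117 tumours, with no overlap. The difference was 0.48 ± 0.08 (log2, SE, adjusted p = 0.000121, limma). Over the 15 tumour arrays, Slc38a1 and Slc38a2 correlated at r = 0.95, and at r = 0.734 when each array was taken as its deviation from its group mean. Both values describe arrays that share groups and tissue.

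The third gene of the cluster, Slc38a4, was lower in Py8119 tumours. It averaged 4.76 ± 0.21 in Py8119 tumours, against 5.12 ± 0.21 in Py117 tumours (SD, n = 5 each), both under background. The difference of -0.36 ± 0.12 had an adjusted p of 0.0225. It was 0.0617 to 0.0664 when Py117 tumour 2 or Py8119 tumour 1 or 3 was left out.

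Among all 10 genes, 5 were called higher in Py8119 than in Py117 tumours, where 21% of all genes were called higher. A further 3 were called lower, where 16.5% of all genes were, and 2 passed no threshold. With genes of a mean under the median gene left out, 7019 of 11090 genes were called in either direction. The median difference of the 10 genes was 0.40 (log2), beside 0.01 over all genes. The higher genes were Slc38a1, Slc38a2, Slc1a5, Slc1a4 and Slc7a1, the lower ones Slc38a4, Slc7a5 and Slc6a14. Of the lower ones, Slc38a4 and Slc6a14 were under background in every array.

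Of the partners of the leucine exchanger, only Slc7a5 was called different between Py8119 and Py117 tumours. Slc7a5, the transporting chain, read 10.36, 10.04, 10.02, 10.42 and 10.01 in Py8119 tumours, against 10.73, 10.81, 10.79, 10.97 and 10.21 in Py117 tumours. All Py117 tumours but tumour 5 stood above every Py8119 tumour. The difference was -0.53 ± 0.14 (log2, SE, adjusted p = 0.00507, limma). Slc3a2, the chain that carries it to the membrane, averaged 10.76 ± 0.19 in Py8119 tumours and 10.62 ± 0.26 in Py117 tumours (SD, n = 5 each). Its difference was 0.15 with a 95% interval of -0.11 to 0.41 and an adjusted p of 0.418. Over the 15 tumour arrays Slc7a5 and Slc3a2 correlated at r = 0.24, and at r = 0.654 as deviations from group means.

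In culture the order of Slc7a5 was the opposite, at 11.55, 11.59 and 11.44 in Py8119 cells and 10.92, 10.96 and 10.58 in Py117 cells. The line difference in tumours minus that in culture was -1.23 ± 0.22 (log2, SE), with an adjusted p of 0.000845 in limma. Slc3a2 averaged 10.99 in Py8119 culture and 10.62 in Py117 culture, without overlap. Its own change of that kind was -0.22 ± 0.20 (adjusted p = 0.548, limma). Of the 9 genes tested for such a change, 2 were called, Slc7a5 and Slc1a5, beside 13.5% of all genes. The culture contrast that chose the group enters this change, so nothing is read from the count. Slc38a4, under background, was at -0.57 ± 0.19 (adjusted p = 0.0618) and was called without Py117 tumour 1 or Py8119 tumour 4 (0.0199 to 0.0258). For Slc1a5 the difference was 0.64 in tumours and 1.59 in culture, a change of -0.95 ± 0.30 with an adjusted p of 0.0419. That call was lost in 10 of 16 fits that left out an array (adjusted p 0.0552 to 0.117), namely for Py117 cultures 1 and 3, Py8119 cultures 1 and 2, Py117 tumours 4 and 5, and Py8119 tumours 1, 2, 3 and 5.

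**Figure D2:**
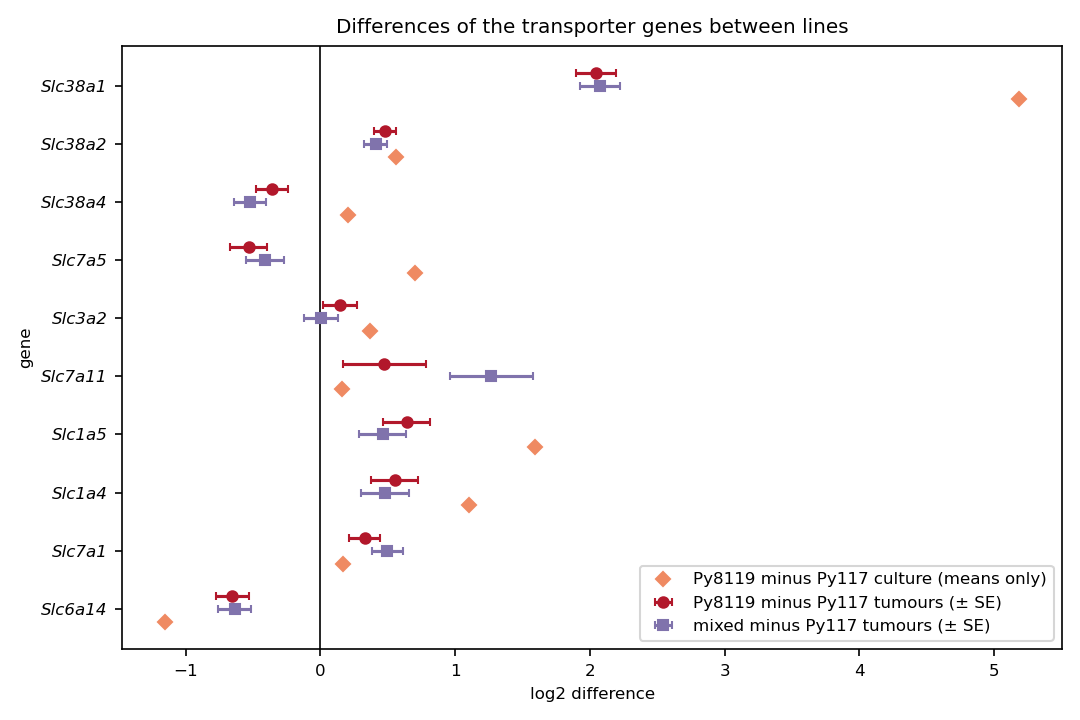
Log2 difference (horizontal axis) of each transporter gene between Py8119 and Py117 tumours (circles), mixed and Py117 tumours (squares), both with the standard error from limma, and the means of the 2 cultures (diamonds, no error shown because that contrast chose the genes). Slc38a1 lay near 2 in tumours and at 5.19 in culture, and Slc7a5 lay on opposite sides of 0 in tumours and culture.

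The neutral amino acid exchangers of the Slc1 family were higher in Py8119 tumours, and both spread widely among the Py117 tumours. Slc1a5 read 9.56, 9.45, 9.35, 9.78 and 9.37 in Py8119 tumours, against 9.53, 8.36, 8.44, 8.95 and 9.02 in Py117 tumours. Tumour 1 of Py117 lay inside the Py8119 range. The difference was 0.64 ± 0.17 (log2, SE, adjusted p = 0.00651, limma). Another Slc1a5 probe set, not used for the gene, stood at 6.27 in Py8119 tumours and 6.12 in Py117 tumours, so the probe sets gave unequal differences.

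Slc1a4 read 8.22, 7.90, 8.15, 8.53 and 8.28 in Py8119 tumours, against 7.19, 8.02, 8.30, 7.46 and 7.36 in Py117 tumours. Py117 tumours 2 and 3 matched the Py8119 range, and tumours 1, 4 and 5 lay below it. The difference was 0.55 ± 0.18 (log2, SE, adjusted p = 0.0193, limma). Leaving out Py117 tumour 1, 4 or 5, or else Py8119 tumour 4, took the call away (adjusted p 0.0502 to 0.059).

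The Py117 tumours also differed in the signal of adipocyte marker genes. The mean of 9 adipocyte marker genes was 8.46, 5.93, 6.04, 7.50 and 8.56 in Py117 tumours 1 to 5, while Py8119 tumours lay between 5.57 and 6.34 and mixed tumours between 5.72 and 6.16. Of the 9 markers, 8 were lower in Py8119 than in Py117 tumours, beside 16.5% of all genes. Of the same markers, 3 had mean signals under background in Py8119 tumours against none in Py117 tumours. The 3 Py117 tumours with the most adipocyte signal were those with the lowest Slc1a4 and the highest Slc1a5.

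With the adipocyte mean as a covariate, the Slc1a4 difference was 0.11 (adjusted p = 0.666), and without Py117 tumours 1, 4 and 5 it was 0.06 (adjusted p = 0.805). Over its 10 other settings the adjusted p ranged from 0.00583 to 0.805. The Slc1a5 difference was 1.13 with the covariate and 1.10 without those tumours (adjusted p = 1.55e-05 and 1.38e-05, in a range up to 0.0101). Slc38a1 stayed at 2.29 and 2.33. Without Py117 tumours 1, 4 and 5, 4 genes were called higher and 3 lower.

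**Figure D3:**
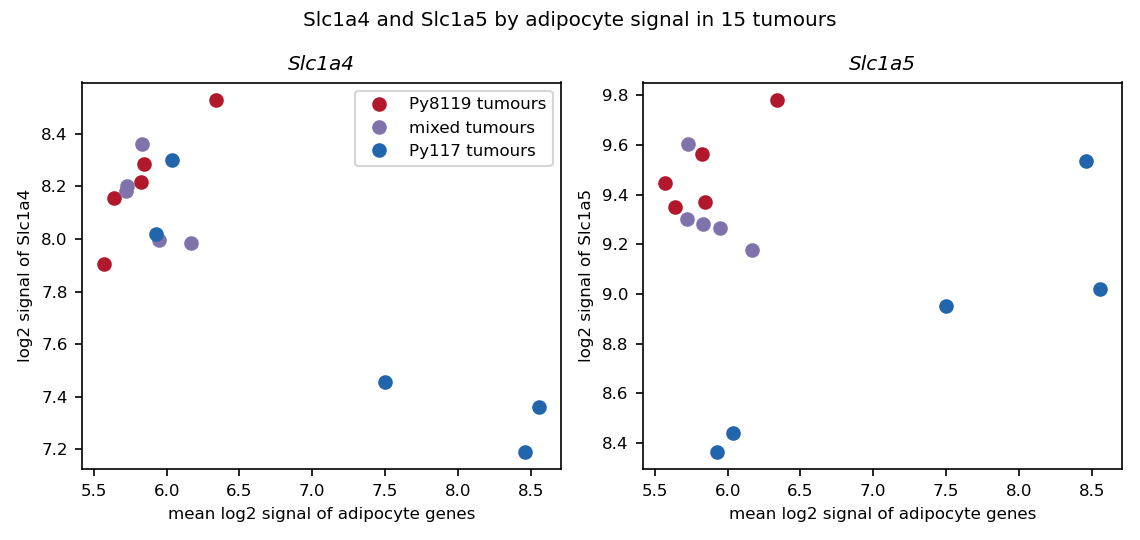
Log2 signal of Slc1a4 (left) and Slc1a5 (right) against the mean log2 signal of 9 adipocyte marker genes in the 15 tumours, with Py8119, mixed and Py117 tumours in separate colours. Py117 tumours 1, 4 and 5, at 7.50 to 8.56 on the horizontal axis, had Slc1a4 at 7.19 to 7.46, and Py117 tumours 2 and 3, near 6, had Slc1a5 at 8.36 and 8.44.

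Marker genes of other host cells moved with the groups as well. The mean of 11 macrophage markers was 10.43 to 10.75 in Py8119 tumours, 10.43 to 10.74 in mixed tumours and 9.74 to 10.13 in Py117 tumours. Of these 11, 8 were higher in Py8119 than in Py117 tumours, beside 21% of all genes. Endothelial markers averaged 6.26 to 6.68 in Py8119 tumours, against 7.42 to 8.20 in Py117 tumours, with 10 of 10 lower. Fibroblast markers averaged 8.03 to 8.99 against 9.41 to 10.41, with 9 of 10 lower and 1 higher. T cell markers averaged 5.45 to 5.58 in Py8119 tumours and 6.07 to 7.25 in Py117 tumours, with 9 of 10 lower. Of all genes, 16.5% were called lower in Py8119 than in Py117 tumours. None of the macrophage, endothelial or fibroblast genes had a mean under background in any tumour group, against 2 T cell genes in Py8119 tumours and 1 in Py117 tumours. The part of these cells in the tumour differences of the transporter genes was not tested.

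Slc7a1, the arginine and lysine carrier, read 8.67, 8.44, 8.37, 8.88 and 8.42 in Py8119 tumours, against 8.15, 8.18, 8.03, 8.56 and 8.20 in Py117 tumours. Only Py117 tumour 4 reached into the Py8119 range. The difference of 0.33 ± 0.11 (log2, SE) had an adjusted p of 0.0293 in limma. The call was lost when Py117 tumour 1, 2, 3 or 5, or else Py8119 tumour 1 or 4, was left out (adjusted p 0.0527 to 0.0915). Slc6a14 was lower in Py8119 tumours, at 4.02 to 4.55, against 4.70 to 5.21 in Py117 tumours (-0.65 ± 0.12, adjusted p = 0.000303), with all arrays under background.

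The cystine carrier Slc7a11 passed no threshold between Py8119 and Py117 tumours. It read 5.88, 4.98, 4.93, 5.07 and 5.04 in Py8119 tumours, against 4.39, 4.19, 4.46, 4.79 and 5.68 in Py117 tumours, with most arrays under background. The difference was 0.48 with a 95% interval of -0.17 to 1.12 (adjusted p = 0.268). In mixed tumours it read 5.37, 5.88, 7.14, 5.56 and 5.92, all above background and, except for mixed tumours 1 and 4, above every Py117 tumour.

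Most of these genes differed between mixed and Py117 tumours, and none was called different between mixed and Py8119 tumours. Against Py117 tumours, 6 of 10 genes were called higher in mixed tumours, where 19.2% of all genes were, and 3 lower, where 16.9% were. With genes of a mean under the median gene left out, 6528 of 11090 genes were called in either direction. The median difference of the 10 genes was 0.44 (log2), beside -0.03 over all genes. Because these comparisons share the Py117 arrays, their values are given side by side only. Slc38a1 differed by 2.08 ± 0.15 (adjusted p = 8.34e-09), Slc38a2 by 0.41 (0.000683) and Slc7a1 by 0.50 ± 0.11 (0.00215), the last with no overlap of arrays.

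Slc7a11 differed between mixed and Py117 tumours by 1.27 ± 0.31 (log2, SE, adjusted p = 0.00314, limma), a size limited by background, under which the Py117 mean lay. Another Slc7a11 probe set, not used for the gene, stood far under background, at 2.67 in mixed and 2.41 in Py117 tumours. Slc38a4 and Slc6a14, at background, differed by -0.52 and -0.64 (adjusted p = 0.00191 and 0.000477). Slc3a2 differed by 0.00 with an interval of -0.26 to 0.27 (adjusted p = 0.984). The other 3 calls depended on single arrays. Slc7a5, at -0.41 (adjusted p = 0.0287), missed the threshold without Py117 tumour 2, 3 or 4 or mixed tumour 1 or 2 (0.0514 to 0.0876).

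The Slc1 exchangers were near the threshold between mixed and Py117 tumours. Slc1a5, at 0.46 (adjusted p = 0.0454), missed it without Py117 tumour 2, 3 or 4, any 1 of the mixed tumours, or Py8119 tumour 1, 2, 3 or 5 (0.0511 to 0.133). Slc1a4, at 0.48 (adjusted p = 0.0426), missed it without Py117 tumour 1, 4 or 5, mixed tumour 3, 4 or 5, or Py8119 tumour 1, 3 or 5 (0.0507 to 0.113). With the adipocyte covariate the Slc1a4 difference was 0.05 (adjusted p = 0.838), in a range over its settings of 0.0106 to 0.952.

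Between mixed and Py8119 tumours limma called none of the 10 genes higher and none lower, beside 1.61% of all genes called higher and 0.162% lower. At an unadjusted p under 0.05 the count was 1 higher, Slc7a11 (0.80 ± 0.31, unadjusted p = 0.0189, adjusted p = 0.262). For Slc38a1 the difference was 0.03, with a 95% interval of -0.28 to 0.35. On the linear scale, as a share of the step that separates the parental means (Py8119 mean minus Py117 mean), the mixed tumours stood at 93.0%, 96.7%, 106.9%, 100.6% and 116.5% for Slc38a1. The signal of a mixed tumour does not give the share of each line in it.

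Tumours and cultures of the same line were compared for the 9 genes other than Slc38a1. In Py8119, 4 of 9 genes were lower in tumours than in culture, where 20.9% of all genes were lower. None was called higher by limma, where 16.3% of all genes were, and 1, Slc6a14, had an unadjusted p under 0.05 (0.024). The 4 were Slc7a5, Slc7a11, Slc1a4 and Slc7a1.

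Slc7a5 read 10.01 to 10.42 in Py8119 tumours, against 11.44 to 11.59 in Py8119 culture (-1.36 ± 0.12, adjusted p = 1.56e-05). Slc7a11 read 4.93 to 5.88, against 6.67 to 7.00 (-1.66 ± 0.20, adjusted p = 0.000131). The mean of Slc7a11 in Py8119 tumours, 5.18, lay under background, so the size of its difference is limited by it. Slc1a4 read 7.90 to 8.53, against 8.90 to 8.96 (-0.72 ± 0.13, adjusted p = 0.00134), and Slc7a1 8.37 to 8.88, against 9.33 to 9.45 (-0.82 ± 0.12, adjusted p = 0.000501). In none of the 4 did tumours and cultures overlap. Slc38a2, Slc3a2 and Slc1a5, with differences of -0.17, -0.23 and -0.15, passed no threshold (adjusted p = 0.146, 0.176 and 0.411). Slc38a2 and Slc3a2 did pass it with each array centred on its median (adjusted p = 0.00861 and 0.0209), and Slc3a2 also without Py8119 tumour 1 (0.0272). Slc6a14 passed it without Py8119 culture 3 or Py8119 tumour 5 (0.0335 to 0.0397).

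In Py117, 2 of 9 genes were lower in tumours than in culture, beside 18.3% of all genes, and 2 higher, beside 12.4%. The lower ones were Slc7a11 (-1.98 ± 0.28, adjusted p = 0.000372) and Slc7a1 (-0.98 ± 0.14, adjusted p = 0.000312). Slc7a11 read 4.19 to 5.68 in Py117 tumours, against 6.55 to 6.85 in Py117 culture, and its tumour mean lay under background, which limits the size of the difference. Slc7a1 read 8.03 to 8.56, against 9.03 to 9.32, so neither gene overlapped. Slc7a5, with -0.12, passed no threshold (adjusted p = 0.645).

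The higher genes in Py117 were Slc1a5 and Slc38a4, the second under background. Slc1a5 read 8.36 to 9.53 in Py117 tumours, against 7.84 to 8.33 in Py117 culture (0.81 ± 0.25, adjusted p = 0.0293), and missed the threshold without Py117 culture 1 or 3 or Py117 tumour 4 or 5 (0.058 to 0.119). Slc38a4 differed by 0.52 ± 0.14 (adjusted p = 0.0161) and missed it without Py117 culture 1 or 2 (0.0627 to 0.0787). Macrophage markers averaged 10.43 to 10.75 in Py8119 tumours, against 5.40 to 5.94 in Py8119 culture. In Py117 tumours they averaged 9.74 to 10.13, against 5.67 to 5.70 in Py117 culture. The part of host cells in the differences between tumours and cultures was not tested.

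In the cultures themselves 3 of 10 genes had a mean at least 2-fold higher in Py8119 cells, Slc38a1, Slc1a5 and Slc1a4, where 2.54% of all genes had one. Slc6a14, under background, was the 1 gene at least 2-fold lower, where 4.25% of all genes were. The means differed by 5.19 for Slc38a1, 1.59 for Slc1a5, 1.10 for Slc1a4, 0.70 for Slc7a5 and -1.15 for Slc6a14 (log2). Nothing is read from these counts, since the same contrast chose the genes.

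Genes that work with the transporters were examined in lists. The shares of all genes beside the counts include dim genes. With genes of a mean under the median gene left out, 7019 of 11090 were called between Py8119 and Py117 tumours, in either direction. Between tumours and culture it was 7141 in Py8119 and 6039 in Py117. Means above background were found in 23 of 23 stress response, 18 of 18 synthetase, 18 of 19 glutamine and cystine, and 29 of 31 mTORC1 genes. Of 23 genes of the amino acid stress response, most of them ATF4 targets, 13 were higher in Py8119 than in Py117 tumours and 8 lower, beside 21% and 16.5% of all genes, with a median of 0.30 (log2). The enzymes of serine synthesis Psat1 (2.03 ± 0.13, adjusted p = 7.16e-10) and Phgdh (1.49 ± 0.14, adjusted p = 1.2e-07) were among the higher genes, with Cth, which makes cysteine (1.43 ± 0.23), and Asns, which makes asparagine (1.42 ± 0.11). Of the 8 lower genes, Vldlr (-1.20 ± 0.20), Trib3 (-1.14 ± 0.14) and Cebpb (-1.14 ± 0.11) had the largest differences. Psat1 averaged 9.12 ± 0.14 in Py8119 tumours, 9.11 ± 0.10 in mixed tumours and 7.09 ± 0.32 in Py117 tumours (SD, n = 5 each). In tumours relative to culture, 15 of the 23 were lower and 3 higher in Py8119, beside 20.9% and 16.3% of all genes. In Py117, 11 were lower and 1 higher, beside 18.3% and 12.4%.

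Of 18 tRNA synthetase genes, whose products load amino acids onto tRNAs, 11 were higher in Py8119 than in Py117 tumours and 2 lower (median 0.37), beside 21% and 16.5% of all genes. Gars (0.90), Lars (0.69) and Iars (0.63) were higher and Farsb lower (-0.73). In Py8119, 17 of 18 were lower in tumours than in culture (median -0.81), beside 20.9% of all genes, and in Py117 15 of 18 (median -0.49), beside 18.3%. None was higher by limma in either line, and none reached an unadjusted p under 0.05 in that direction.

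Of 19 genes for the use of glutamine and cystine, 7 were higher in Py8119 than in Py117 tumours and 4 lower (median 0.12), beside 21% and 16.5% of all genes. Bcat1, which transfers the amino group of leucine and its relatives, rose by 1.71 ± 0.10 and the aspartate aminotransferase Got1 by 1.39 ± 0.12. Nqo1, a quinone reductase that the factor Nrf2 induces, was lower at -2.68 ± 0.18 (adjusted p = 1.22e-09), while Srxn1, also known as an Nrf2 target, was higher by 0.85 ± 0.12. Nqo1 averaged 6.61 ± 0.40 in Py8119 tumours, 7.80 ± 0.22 in mixed tumours and 9.29 ± 0.29 in Py117 tumours (SD, n = 5 each).

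Of 31 genes of amino acid sensing by mTORC1, the kinase complex that leucine and arginine activate, 18 were higher in Py8119 than in Py117 tumours and 4 lower (median 0.30), beside 21% and 16.5% of all genes. The arginine sensor Castor1 (0.97 ± 0.14) and Nprl3 of the GATOR1 complex, which restrains mTORC1 (0.79 ± 0.09), were higher. Rraga, a GTPase that recruits mTORC1, was lower (-0.92 ± 0.11), as was Sesn3, a sestrin (-2.51 ± 0.13, adjusted p = 7.37e-11). With the adipocyte covariate, and likewise without Py117 tumours 1, 4 and 5, the lower genes of this list numbered 2.

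**Figure D4:**
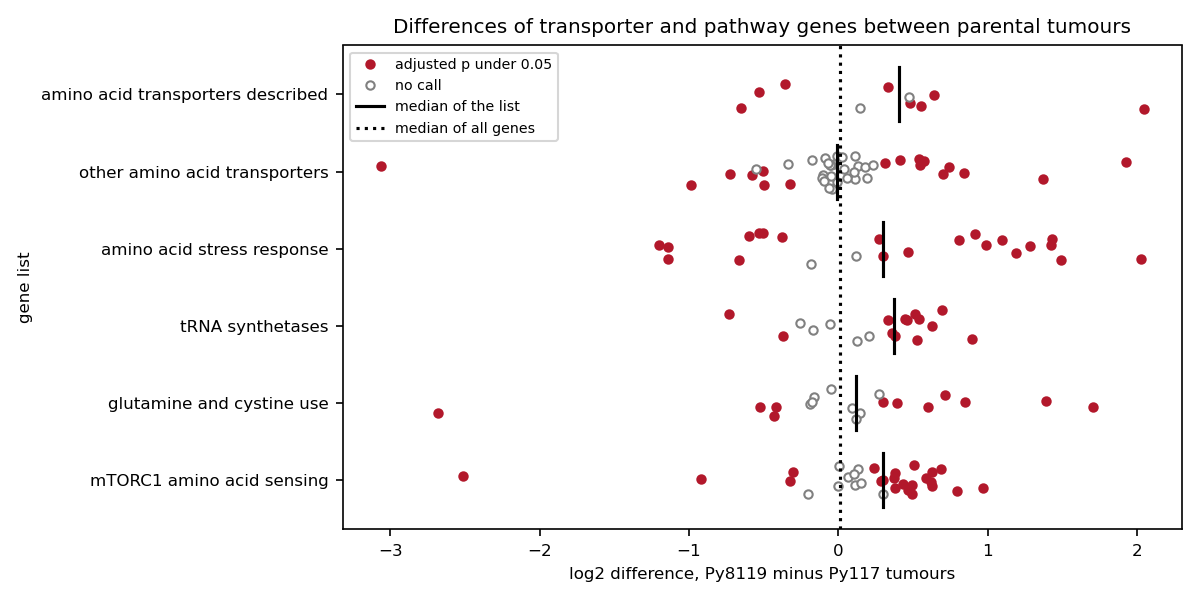
Log2 difference between Py8119 and Py117 tumours (horizontal axis) of the 10 transporter genes and of 5 gene lists. Filled points had an adjusted p under 0.05 in limma, open points did not, short bars are list medians and the dotted line is the median of all genes. The lists for stress response, tRNA synthetases and mTORC1 sensing have medians of 0.30, 0.37 and 0.30, and that of other transporters -0.01. Of the 43 other transporters, 27 had a mean above background.

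Of 43 other amino acid transporter genes, 10 were higher in Py8119 than in Py117 tumours and 7 lower, beside 21% and 16.5% of all genes, and their median was -0.01. These shares are near those of all genes. Only 27 of the 43 had a mean above background over the 21 arrays. Slc38a3, a glutamine transporter of the same family as Slc38a1, was lower in Py8119 than in Py117 tumours. It read 8.10, 8.49, 8.30, 8.07 and 8.01 in Py8119 tumours, against 11.77, 11.46, 10.75, 11.40 and 10.88 in Py117 tumours (-3.06 ± 0.21, adjusted p = 1.63e-09). Mixed tumours lay between these, at 8.67, 9.30, 8.77, 9.63 and 9.56, and above Py8119 tumours (0.99, adjusted p = 0.0134). In culture it averaged 5.67 ± 0.20 in Py8119 cells and 9.48 ± 0.33 in Py117 cells (SD, n = 3 each).

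Slc7a6, another light chain that pairs with Slc3a2, was higher in Py8119 tumours, at 9.30 to 9.77, against 7.09 to 7.82 in Py117 tumours (1.93 ± 0.13, adjusted p = 1.55e-09). Slc6a15, a carrier of branched-chain amino acids and proline, was higher by 1.37 ± 0.21 and Slc38a10 lower (-0.99 ± 0.11).

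**Figure D5:**
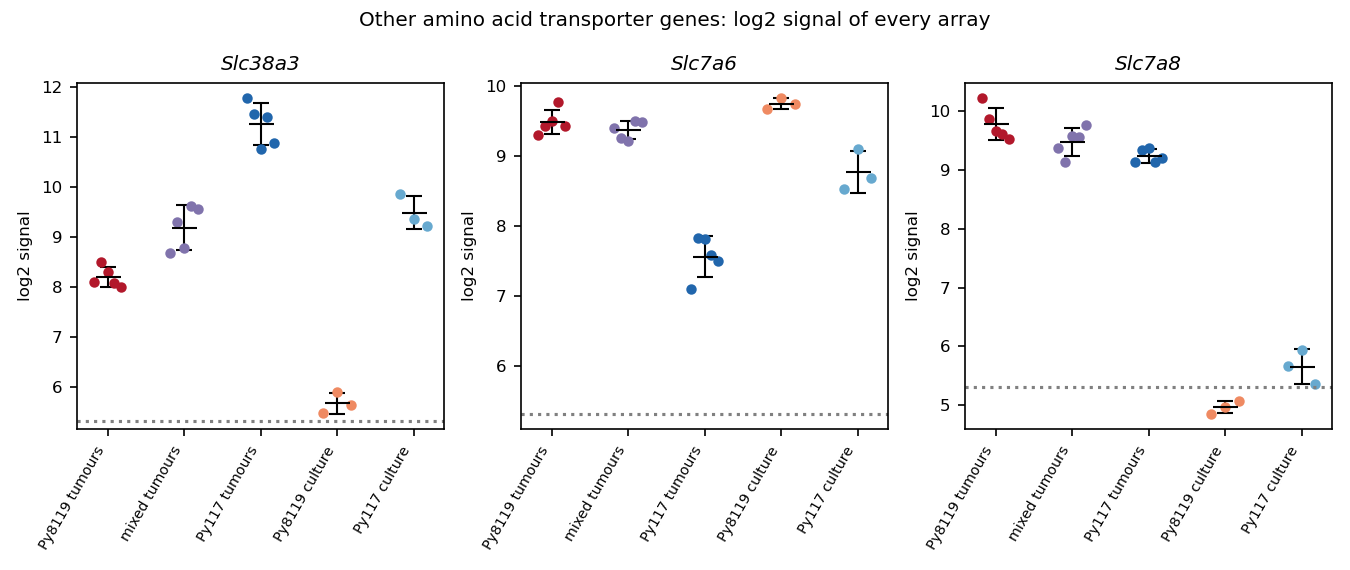
Log2 signal (vertical axis) of Slc38a3, Slc7a6 and Slc7a8 in each of the 21 arrays, by group, with the mean ± SD of 5 tumours or 3 cultures and background as a dotted line. Slc38a3 was lowest in Py8119 culture (5.67) and highest in Py117 tumours (11.25), and Slc7a8 was above 9 in all tumours and under 6 in all cultures.

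The pattern of Slc38a1 over the 15 tumour arrays was most like that of Vcam1, an adhesion molecule (Pearson r = 0.991), Heatr1 (0.989), Dock11 (0.989), Utp11 (0.988) and Me2 (0.988), among 12541 genes above background. With each array as its deviation from its group mean, these were 0.891, 0.868, 0.81, 0.767 and 0.841. Vcam1 averaged 11.34 in Py8119 tumours, 11.33 in mixed tumours and 9.56 in Py117 tumours. These arrays fall into separate groups, and a difference between groups that both genes share adds to the first set of values. The deviations leave that difference out. What these genes share was not tested.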

How the data were processed

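Total RNA of 21 samples was labelled for whole-transcript Affymetrix arrays, per the labels. The authors deposited signals on a log2 scale. RMA and limma, with no version, appear in the submitters' processing notes. RMA as usually run sets all arrays to a common distribution, so differences are relative. No hybridisation batch is given.

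Of 41345 probe sets, 23521 had 1 gene symbol, 1814 several and 16010 none. Single-symbol probe sets were used, and for 1082 genes with several the one with the highest mean over 21 arrays, which gave 22180 genes. Of 237 entries in the gene lists, 219 were measured.

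Differences were tested over all genes by the lmFit and eBayes functions of limma 3.58.1 under R 4.3.3, after a check of the script on simulated data, with Benjamini-Hochberg adjustment over all 22180 genes and a threshold of 0.05. The 3 tumour groups shared a fit, each line's tumours and cultures another, and the change of the line difference a fit of 4 groups. Each gene list is given by counts and median. Named were the 10 transporters, from each list the 4 called genes with the largest difference and no overlap between Py8119 and Py117 tumours, and the 5 genes most correlated with Slc38a1 in tumours. Vldlr, Trib3 and Cebpb, the lower stress response genes with the largest differences, were named as well. Figures and tables used Python 3.11.15 and matplotlib 3.10.9. Members and lists were chosen with earlier results of these data known. The alternatives were quantile normalisation, median centring, array weights, a trended and robust prior, dim genes left out, the mean of a gene's probe sets, 1 fit of 21 arrays, an adipocyte covariate, the replicate number as a block, a stricter threshold and each array left out. The fit without the 3 Py117 tumours of highest adipocyte signal was chosen after seeing the data. Intervals are 95% intervals of limma's moderated differences. The number of arrays limits the precision.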

Additional observations from a re-analysis of the deposited data

Results flagged for a closer look

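In 4 of 30 sets of 5 tumour arrays (10 genes in 3 tumour groups), the highest array stood far from the rest by Dixon's test of gap over range, a test that flags about 1 in 20 sets by chance. Slc38a1 reached 10.24 in Py8119 tumour 4, with a gap of 0.819 of the range. Slc38a2 reached 10.91 in mixed tumour 5 (0.860 of the range). Slc3a2 and Slc7a11 reached 11.10 and 5.88 in Py8119 tumour 1 (0.815 and 0.855 of the range).

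By limma's interaction contrast, a change of the line difference between tumours and culture was called for 2 of the 9 genes tested, beside 13.5% of all genes. Nothing is read from this count, since the culture contrast that chose the group enters it. For Slc7a5 the tumour difference minus the culture difference was -1.23 (adjusted p = 0.000845), and for Slc1a5 it was -0.95 (adjusted p = 0.0419). The Slc1a5 call was lost in 10 of 16 fits without 1 array and with the mean of probe sets (adjusted p = 0.127).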

How the results depend on the processing

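Values at or near background (Slc38a4, Slc6a14 and most Slc7a11 tumours) limit what the array can show, and median centring shifted the median of all genes from -0.01 to 0.14 between the cultures and from -0.05 to -0.26 between Py8119 tumours and culture. Slc38a1 kept its direction and its call between Py8119 and Py117 tumours under all 10 settings (1.995 to 2.334) and without any 1 array. Counts of the 10 transporters moved in many settings, and the cause was not tested. Higher in mixed than in Py117 tumours, reported as 6, were 4 under quantile normalisation and 4 at adjusted p under 0.01. That count was 5 with dim genes left out, array weights, the replicate block or the adipocyte covariate, and 4 to 6 without 1 array. Higher in Py8119 than in Py117 tumours were 3 at adjusted p under 0.01 and 3 to 5 without 1 array, 3 when Py117 tumour 1 or 5 or Py8119 tumour 4 was left out. With dim genes left out, fewer of them being tested, 1 was lower in Py8119 than in Py117 tumours, 1 lower in mixed than in Py117 tumours, 1 higher and 1 lower in Py117 tumours than in culture, and 3 other transporters were lower in Py8119 tumours.

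In Py8119 tumours against culture, 1 was higher under quantile normalisation, 1 in a fit of 21 arrays and 0 to 1 without 1 array. In Py117, the higher count was 0 under median centring, 0 at adjusted p under 0.01, 1 with the mean of probe sets and 0 to 2 without 1 array. For the change of the line difference the count was 1 with the mean of probe sets, 1 at adjusted p under 0.01 and 1 to 3 without 1 array. With the adipocyte covariate, 4 other transporters and 2 mTORC1 genes were lower in Py8119 tumours, and without Py117 tumours 1, 4 and 5 the mTORC1 count was 2.

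Single calls also depended on settings other than leaving out an array. Median centring took away those of Slc38a4 (Py8119 against Py117 tumours, adjusted p = 0.0885; Py117 tumours against culture, 0.0504), Slc7a5 (mixed against Py117 tumours, 0.06) and Slc1a5 (Py117 tumours against culture, 0.0569). Array weights took away those of Slc7a1 (Py8119 against Py117 tumours, 0.063) and Slc1a5 (mixed against Py117 tumours, 0.0539), and quantile normalisation those of Slc1a5 and Slc1a4 (mixed against Py117 tumours, 0.0708 and 0.096). The mean of probe sets took away Slc1a5 in Py117 tumours against culture (0.0931) and in the change of the line difference (0.127). Slc38a4 was called in that change under quantile normalisation, median centring, array weights and a fit of 21 arrays (0.0134 to 0.0437).

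Deviations of same-numbered samples from their group means correlated at -0.234 to 0.257. Samples of different numbers were not compared, so these values cannot tell whether numbers pair them. With the replicate number as a block, 0 were higher in Py117 tumours than in culture, and Slc3a2 and Slc1a4 there differed by 0.1654 and 0.0006308. The block also took away the calls of Slc38a4 and Slc1a5 there (0.0561 and 0.0955) and of Slc1a4 in mixed against Py117 tumours (0.054).

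Directions that turned were all of differences past no threshold, except Slc1a4 between mixed and Py117 tumours. Between Py8119 and Py117 tumours, Slc3a2 was at -0.05064 with the adipocyte covariate and -0.02748 without the 3 Py117 tumours. Between mixed and Py117 tumours it was at -0.1888 (covariate), -0.1703 (without the 3 Py117 tumours), -0.003616 (quantile) and -0.09981 to 0.05843 (1 array left out), and Slc1a4 at -0.01384 without the 3 Py117 tumours. Between mixed and Py8119 tumours, Slc38a1 was at -0.006341 with median centring and -0.002594 to 0.09766 without 1 array. There Slc6a14 was at -0.02295 with median centring, -0.02165 with array weights and -0.06322 to 0.0752 without 1 array, and Slc1a4 at -0.1501 to 0.006062. In tumours against culture, without 1 array, Py8119 Slc38a4 was at -0.1205 to 0.007406, and Py117 Slc7a5 at -0.2422 to 0.000939, Slc3a2 at -0.05992 to 0.09831 and Slc6a14 at -0.1565 to 0.0145. In Py117, quantile normalisation gave 0.02033 for Slc38a2 and 0.07836 for Slc3a2, and array weights 0.00414 for Slc6a14.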

Other observations

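Slc7a8 (LAT2), a further exchanger that pairs with Slc3a2, was singled out among the other transporters after its values were seen. It read 9.53 to 10.22 in Py8119 tumours, 9.14 to 9.76 in mixed tumours and 9.13 to 9.37 in Py117 tumours. In Py8119 culture it read 4.86 to 5.08, under background, and in Py117 culture 5.36 to 5.95. All tumours stood above all cultures. No test is given, because the gene was chosen for these values, and the culture of Py8119 gives no exact difference at background. Slc7a5, which has a like role, was lower in Py8119 tumours than in Py8119 culture. Between Py117 tumours and Py117 culture Slc7a5 differed by -0.12 and passed no threshold (adjusted p = 0.645, limma). The part of host cells in the Slc7a8 signal was not tested.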
